A study of Mus musculus with 11 samples.

Results

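The genes described here encode integrins and adhesion molecules of T cells. They are 7 integrin subunits (Itgal, Itgb2, Itga4, Itgb1, Itgb7, Itgae and Itgav), the selectin ligand Selplg, the hyaluronan receptor Cd44 and the integrin ligand Icam2. These 10 genes were taken by name from the 32469 gene symbols of the deposited table of bulk RNA-seq read counts, by a rule that names no value, though with earlier results of these data known. All 10 had a row in the table, and 9 of them passed the filter on low counts and were tested among 6949 genes. Itgae did not pass.

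The libraries came from wild-type (WT) female C57BL/6 mice, 8 weeks old when purchased, that carried Lewis lung carcinoma (LLC), a lung carcinoma line of the same strain, under the skin of both flanks. The left tumor of each mouse was removed on day 14. The aLAG3 group, 6 mice, then received 200 µg of the anti-LAG-3 antibody clone C9B7W intraperitoneally on day 14 and again on day 16, and the untreated group, 5 mice, received none. The second excision was on day 18 according to the methods and on day 21 according to the deposited description. From the tumors, CD8+PD-1+Ly108+TIM-3- cells, the precursor exhausted fraction, were sorted with a further surface marker gate, and a library was made per mouse. All animals of both groups carried the same tumors and had the same first surgery. No injection of a control antibody is described for the untreated mice.

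Integrins are receptors made of an alpha and a beta chain that hold T cells to the vessel wall, to target cells and to the matrix. Their binding is switched mainly by a change of shape that signals inside the cell set off, so the level of the RNA is a measure of subunit supply and not of adhesion. LFA-1, the pair of Itgal and Itgb2, binds ICAM proteins at the contact with a target cell. Itga4 pairs with Itgb1 to bind VCAM-1 and with Itgb7 to bind MAdCAM-1, and Itgae pairs with Itgb7 to form CD103, which holds resident T cells to E-cadherin of epithelia. Itgav pairs with several beta chains, some of which activate latent TGF-β. Selplg (PSGL-1) and Cd44 support rolling and retention, and PSGL-1 also restrains T cells in tumors.

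The untreated libraries held 317449 to 1271063 counts and the aLAG3 libraries 313524 to 1901374, so that 3 counts were worth 1.58 to 9.57 CPM. Depth went with the primer barcode. For barcode 9, 6 libraries with 3 of each group held 566144 to 1901374 counts, whereas the 4 libraries of primer barcode 8 (1 untreated, 3 aLAG3) held 313524 to 451465 and the single untreated library of primer barcode 10 held 317449. Markers of CD8 T cells summed to 4606 to 5148 CPM in every library, and the CD4 T cell markers to at most 2.22 CPM. Cd8a, which the sort selects, was at 1163 to 1243 CPM in untreated and at 1088 to 1301 CPM in aLAG3 libraries. Pdcd1, which encodes PD-1, had a mean of 716 CPM in untreated and 605 CPM in aLAG3 libraries, a log2 fold change of -0.24 (standard error 0.097, unadjusted p = 0.0214, adjusted p = 0.999 in the quasi-likelihood test). Slamf6, which encodes Ly108, had means of 111 and 97.5 CPM, a log2 fold change of -0.17 (unadjusted p = 0.184, adjusted p = 0.999 in the quasi-likelihood test). The part of these sort markers in the results was not tested. Lag3, the gene of the antibody's target, was at 457 to 531 and 415 to 561 CPM, and the antibody does not act on its RNA. The 11 myeloid markers summed to 20.1 to 80.5 CPM in 10 libraries and to 159 CPM in aLAG3 library 10, without a read on S100a8 or S100a9 in any library. In these sorted bulk samples, fewer cells that express a gene and less RNA per cell cannot be told apart.

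None of the 9 tested genes passed the test between the groups. Of these 9 genes, 4 were higher and 5 lower in aLAG3 libraries by point estimate, with log2 fold changes from -0.11 for Itgb7 to 0.15 for Cd44 and a median of -0.016, beside a median of 0.0045 over all 6949 genes. The adjusted p was 0.999 for each of them (edgeR, quasi-likelihood test, Benjamini-Hochberg adjustment over all genes tested). Over all genes tested the same test called 0% (0 of 6949) at an adjusted p under 0.05. At an unadjusted p under 0.05 it gave 0 of the 9 genes, where the background was 3.73% (259 of 6949), and the smallest unadjusted p among the 9 was 0.163, for Cd44. DESeq2 and limma-voom also placed 0 of them under 0.05 before adjustment. The 95% confidence intervals bounded what these libraries could have missed. Across the 9 genes they reached from a fold of 0.681 to a fold of 1.44, both for Icam2, and for Selplg they ran from 0.834 to 1.04. In counts simulated at these depths, 38% of 1.5-fold and 83% of 2-fold changes were called when 200 genes were changed. The 200 were drawn at random from all tested genes. These shares thus hold for that number of changes and not for any of the 9 genes.

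**Figure D1:**
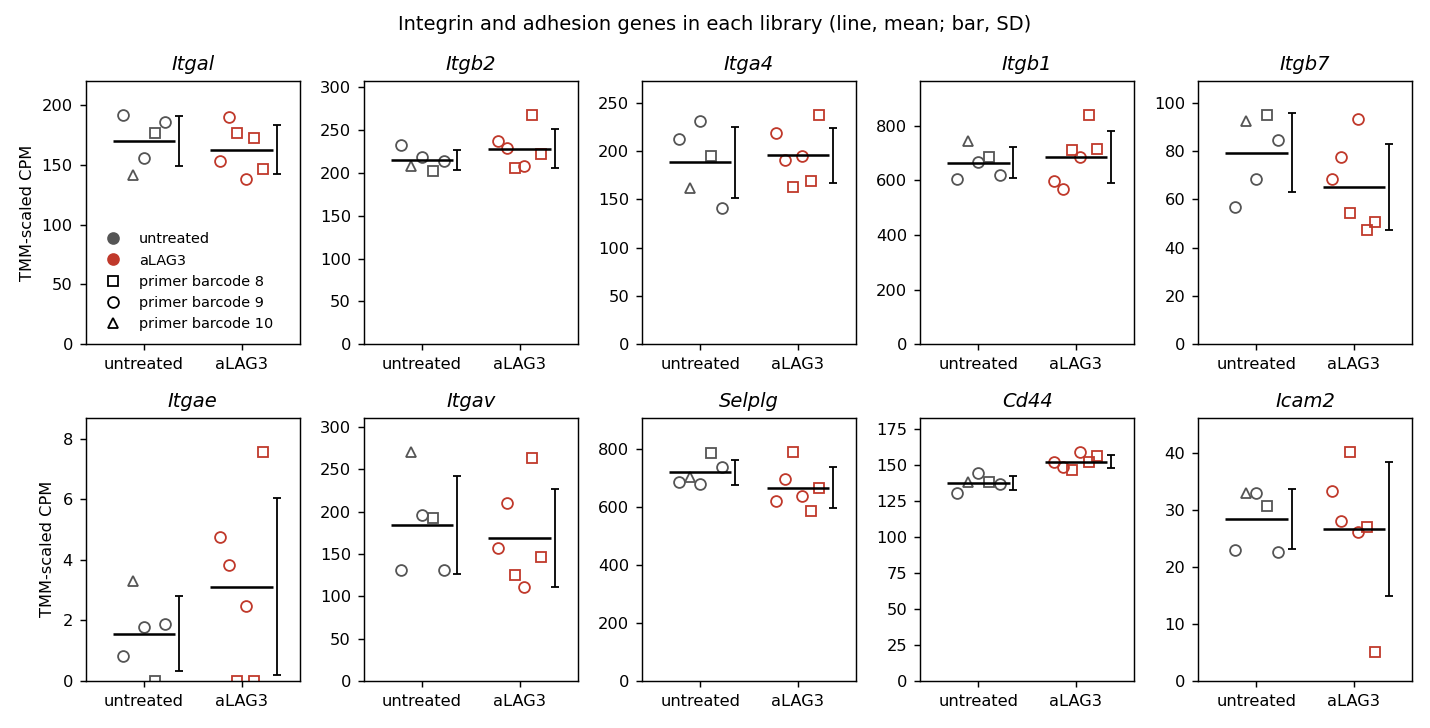
TMM-scaled CPM (y axes, from 0) of each gene in the 5 untreated (grey) and 6 aLAG3 (red) libraries, with the primer barcode as the symbol, the group mean as a line and the SD as a bar. The groups overlap in every panel but that of Cd44, where the untreated libraries lie between 131 and 144 CPM and the aLAG3 libraries between 146 and 159 CPM.

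**Figure D2:**
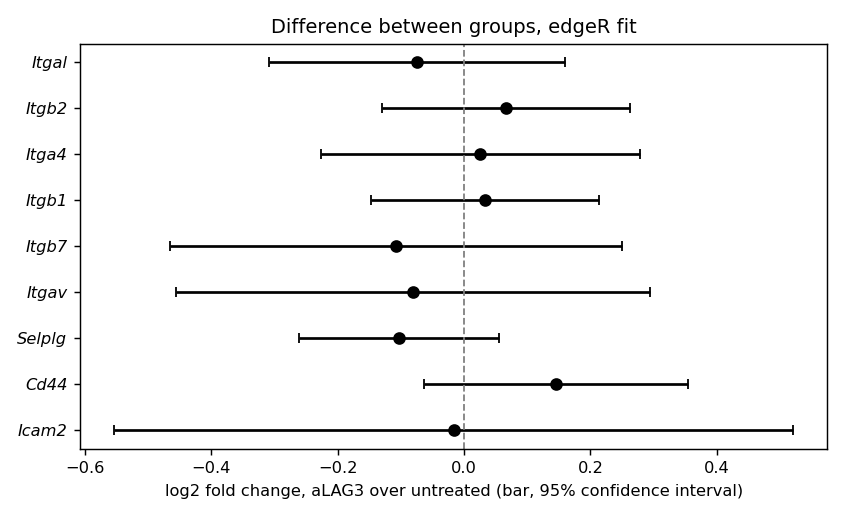
Log2 fold change of aLAG3 over untreated libraries (x axis) with its 95% confidence interval for the 9 tested genes, from edgeR's quasi-likelihood fit. Every interval includes 0, and that of Icam2, from -0.55 to 0.52, is the widest.

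The level order was read per kilobase of the longest coding transcript, as the mean over all 11 libraries. Selplg stood highest at 372 CPM per kilobase, followed by Itgb1 at 177 and Itgb2 at 74.8, and the ranges of these 3 genes over the libraries did not overlap with each other or with the next gene. Below them came Itgal at 31.8, Itgb7 at 26.7, Cd44 at 25.9, Itgav at 24.9, Icam2 at 21.4 and Itga4 at 19.7 CPM per kilobase. Each of these 6 overlapped its neighbour in the order, so neighbours were not resolved. On this per-kilobase scale the ends were, with Itgal (26.4 to 36.6) above Itga4 (14.4 to 24.3) in every library. Itgae was far below all of them at 0.624 CPM per kilobase. Libraries were primed at the poly-A tail, and the barcode primer was added at the opposite, template-switch end before fragmentation. Whether reads scale with transcript length in them is not known, so this order depends on that scaling. Without division by length, the mean was 689 CPM for Selplg, 677 for Itgb1, 222 for Itgb2, 192 for Itga4 and 176 for Itgav. It was 166 CPM for Itgal, 146 for Cd44, 71.6 for Itgb7 and 27.4 for Icam2, so Itga4 there stood above Itgal. With the length of all exons joined in place of the longest transcript, Itgb1 (166) stood just above Selplg (161), while Itgb2 kept its rank and Itgae stayed last.

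The LFA-1 alpha chain Itgal (ENSMUSG00000030830.18, chromosome 7 of GRCm38, 127296260 to 127335138, plus strand) was measured at 191, 142, 156, 177 and 186 CPM in untreated libraries 1 to 5. In the aLAG3 libraries its lowest level was 138, its median 163 and its highest 190 CPM. Both groups spread over nearly the same range. Means and SDs were 170 ± 20.9 CPM over the 5 untreated and 163 ± 20.2 CPM over the 6 aLAG3 libraries, and the fitted log2 fold change was -0.074 (standard error 0.11). Within primer barcode 9 it was -0.13. With each library left out it lay between -0.15 (without aLAG3 library 7) and -0.017 (without untreated library 1). Without the 3 libraries whose titles share the code ExT18083 it was -0.20.

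Itgb2 (ENSMUSG00000000290.13, chromosome 10, 77530252 to 77565708, plus strand), the beta chain of LFA-1 and of the myeloid integrins, was at 232, 208, 218, 202 and 214 CPM in the untreated libraries. The aLAG3 libraries lay between 205 and 267 CPM with a median of 225 CPM. The highest value was that of aLAG3 library 10, the library with the highest myeloid marker sum, and the groups overlapped. A log2 fold change of 0.067 (standard error 0.096) was fitted, and without that library it was 0.030. Lyz2 (9 reads), Cd68 (15), C1qa (8), C1qb (11), C1qc (3) and Aif1 (3) were highest of all libraries in aLAG3 library 10. Of the other myeloid markers, Csf1r, Adgre1, S100a8 and S100a9 had 0 reads there and Cd14 had 1. The same library had the highest sum of the dendritic cell and MHC class II markers (447 CPM, at most 298 CPM elsewhere). Most of it was Cd74, at 369 CPM, and H2-Ab1 (40.6 CPM, 12 reads) was also at its highest. H2-Aa (40.6 CPM) and H2-Eb1 (13.5 CPM) were not, and Flt3 had 0 reads, Xcr1 1 and Zbtb46 2. The B cell marker sum was highest there too, at 12.8 CPM (at most 8.94 CPM elsewhere), near the 9.57 CPM that 3 counts were worth. The part of these genes in the Itgb2 level was not tested. Within primer barcode 9 the log2 fold change was 0.017. Between libraries Itgb2 varied about as counting error alone would give, with a chi-square of 0.745 per degree of freedom within groups, where the median of all tested genes was 1.46.

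Itga4 (ENSMUSG00000027009.18, chromosome 2, 79255426 to 79333123, plus strand), the alpha chain of the VCAM-1 and MAdCAM-1 receptors, was at 213, 162, 231, 195 and 141 CPM in untreated libraries and at 163 to 237 CPM, median 193 CPM, in aLAG3 libraries. High and low libraries occurred in both groups, which overlapped almost fully. Its log2 fold change of 0.026 (standard error 0.12) turned to -0.0015 with the primer barcode as a covariate. Of the 50-base stretches of its transcripts, 7.51% are found in other genes too, among them Cerkl on the opposite strand. Whether the counting used strand is not stated, so the Itga4 count is uncertain to that extent. The table gives Cerkl at most 15.1 CPM in any library.

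Itgb1 (ENSMUSG00000025809.15, chromosome 8, 128685654 to 128733200, plus strand), the shared beta chain of the matrix and VCAM-1 receptors, carried the most reads of any integrin gene. Its levels were 606, 745, 669, 686 and 621 CPM in the untreated libraries and 568 to 839 CPM, median 699 CPM, in the aLAG3 libraries. The extremes on both sides, aLAG3 libraries 7 and 10, belonged to the same group. Means and SDs were 665 ± 55.4 CPM over the 5 untreated and 686 ± 96.4 CPM over the 6 aLAG3 libraries, and the fitted log2 fold change was 0.033 (standard error 0.088), but -0.042 within primer barcode 9 and -0.025 without aLAG3 library 10.

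The Itgb1 level instead went with library depth. The 5 libraries of primer barcodes 8 and 10, all shallow, lay between 686 and 839 CPM, and the 6 deeper libraries of primer barcode 9 between 568 and 688 CPM. Over the 11 libraries Pearson's r between the log2 CPM of Itgb1 and the log2 total count was -0.84 (permutation test, p = 0.00113, adjusted p = 0.0102 over the 9 tested genes), and Spearman's rho was -0.87 (permutation test, p = 0.00099, adjusted p = 0.00891). Without the 2 libraries farthest from the median depth, r was -0.73 (exact permutation test, p = 0.0223). In the 6 libraries of primer barcode 9 it was -0.50 (exact permutation test, n = 6, p = 0.308), which did not pass. For the 4 libraries of primer barcode 8, too few for a correlation here, Itgb1 was at 839, 686, 716 and 710 CPM at total counts of 313524, 407500, 416093 and 451465. Without aLAG3 library 7, the deepest, r was -0.78 with an adjusted p of 0.058 by the permutation test. An r this far below 0 was found for 6 of all 6949 tested genes (0.0863%), and an r this far above 0 for another 6. The relation was sought after the values had been seen. For the other 8 genes r lay between -0.27 for Itgav and 0.45 for Itga4, with adjusted p-values of 0.74 or more in the same permutation test. The r of Itgb2 rested on aLAG3 library 10, being 0.12 with it and 0.72 without it (adjusted p = 0.106, permutation test). Depth and primer barcode moved together, and their parts in the Itgb1 level were not tested separately beyond these values.

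**Figure D3:**
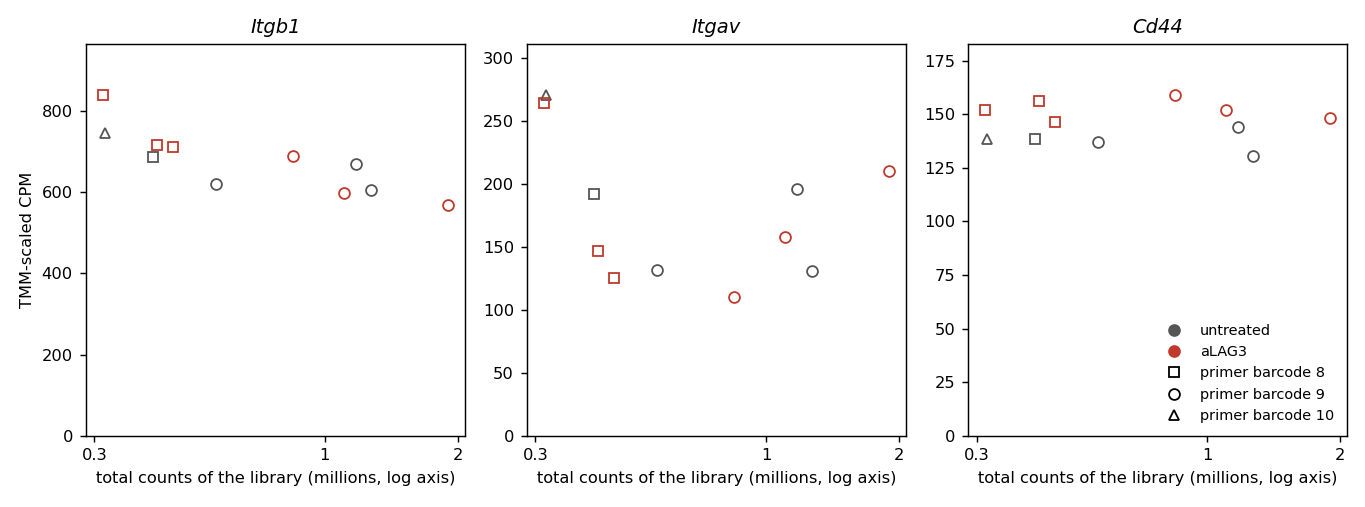
TMM-scaled CPM (y axes, from 0) of Itgb1, Itgav and Cd44 in each library against its total count (x axes, log scale), with the group as colour and the primer barcode as symbol. Itgb1 lies lower in deeper libraries, from 839 CPM in the shallowest to 568 CPM in the deepest, whereas Cd44 lies higher in aLAG3 libraries at every depth.

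Itgb7 (ENSMUSG00000001281.10, chromosome 15, 102215995 to 102231944, minus strand), the beta chain of the gut-homing and the CD103 receptors, was at 56.7, 92.3, 68.5, 94.8 and 84.4 CPM in untreated libraries. The aLAG3 libraries lay between 47.3 and 93.1 CPM, with a median of 61.3 CPM. The 3 lowest libraries of all 11 were aLAG3 libraries 8, 10 and 11, which are the 3 aLAG3 libraries of primer barcode 8. At -0.11 (standard error 0.17), the log2 fold change was within its error. With each library left out it lay between -0.24 (without untreated library 1) and -0.039 (without untreated library 4). Its sign depended on the barcode. Within primer barcode 8 the aLAG3 libraries, at 47.3 to 54.3 CPM, lay below the single untreated library at 94.8 CPM, whereas within primer barcode 9 the aLAG3 libraries, at 68.3 to 93.1 CPM, had a higher mean (79.6 CPM) than the untreated ones (69.9 CPM), a log2 fold change of 0.22 with an adjusted p of 0.986 by the quasi-likelihood test. Counts on this gene were low, from 14 to 141 reads per library.

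Itgae (ENSMUSG00000005947.11, chromosome 11, 73090583 to 73147446, plus strand), the alpha chain of CD103, was near the limit of detection. It had 1, 1, 2, 0 and 1 reads in untreated libraries 1 to 5 and 5, 7, 0, 2, 0 and 3 reads in aLAG3 libraries 6 to 11. Libraries at 0 occurred in both groups, and the 3 libraries with 3 or more reads were all aLAG3 libraries. Pooled over libraries, this was 5 reads of 3738789 in untreated (1.34 CPM of total counts, exact Poisson 95% interval 0.434 to 3.12) and 17 reads of 5034610 in aLAG3 (3.38 CPM, 1.97 to 5.41). The ratio of 2.52 had an exact 95% interval of 0.894 to 8.75, which covers counting error only. Over the libraries this CPM did not differ beyond their spread (exact two-sided permutation test, p = 0.314), nor did they in the fit of all genes without a filter (log2 fold change 1.21, adjusted p = 0.722, edgeR). Within primer barcode 9 the 3 untreated libraries, at 0.821 to 1.88 CPM, lay below the 3 aLAG3 libraries, at 2.48 to 4.75 CPM, a separation of 3 against 3 libraries that 10.2% of the tested genes also showed and that rests on 1 to 7 reads per library. A difference in Itgae was thus not detected, and these counts leave a wide interval.

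Itgav (ENSMUSG00000027087.11, chromosome 2, 83724397 to 83806916, plus strand), the alpha chain of receptors for vitronectin and latent TGF-β, varied most between mice among the 9 tested genes when counting error is taken into account. Its levels were 131, 270, 196, 192 and 131 CPM in untreated libraries and 110 to 264 CPM, median 152 CPM, in aLAG3 libraries. Libraries at 131 CPM or less and libraries at 264 CPM or more were found in both groups. The within-group chi-square was 10.7 per degree of freedom, beside 5.85 for Itgb1, at most 3.23 for the other 8 genes, and an upper decile of 3.24 over all tested genes, and its biological coefficient of variation, 0.195, was the highest of the 9. Its log2 fold change was -0.081 (standard error 0.18), but 0.080 within primer barcode 9 and 0.045 without untreated library 2.

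The titles of untreated libraries 2 and 3 and aLAG3 library 10 share the code ExT18083, whose meaning the labels do not give. Itgav was at 196 to 270 CPM in these 3 libraries and at 110 to 210 CPM, median 139 CPM, in the other 8, a split that was noticed after the values had been seen. Untreated libraries 4 and 5 share another code, ExT18082, and their Itgav levels were 192 and 131 CPM. Of the 2 highest Itgav libraries, untreated library 2 is of primer barcode 10 and aLAG3 library 10 of primer barcode 8, and they are the 2 shallowest of the series. Without the 3 libraries of that code the log2 fold change of Itgav was 0.075. Some of its transcript stretches (5.4%) are shared with Gm13684 on the opposite strand, which had at most 4.72 CPM in any library.

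Selplg (ENSMUSG00000048163.13, chromosome 5, 113818536 to 113832644, minus strand), the P-selectin ligand PSGL-1, was at 685, 702, 678, 786 and 737 CPM in untreated libraries and at 585 to 788 CPM, median 651 CPM, in aLAG3 libraries. In 4 of the 6 aLAG3 libraries it lay below every untreated library, and in aLAG3 library 8 it lay above all of them. Means and SDs were 718 ± 44.6 CPM over the 5 untreated and 665 ± 71.1 CPM over the 6 aLAG3 libraries. This gave a log2 fold change of -0.10 (standard error 0.077, unadjusted p = 0.192, adjusted p = 0.999 in the quasi-likelihood test), which kept its sign under each alternative and each library left out, between -0.15 and -0.070.

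Cd44 (ENSMUSG00000005087.17, chromosome 2, 102811141 to 102901665, minus strand), the hyaluronan receptor that marks activated and memory T cells, was the gene with the smallest p among the 9. It was at 131, 138, 144, 138 and 137 CPM in untreated libraries 1 to 5 and at 152, 148, 146, 159, 152 and 156 CPM in aLAG3 libraries 6 to 11. Each aLAG3 library lay above each untreated library. Such a separation was seen for 1 of the 9 genes and for 0.475% of all genes tested (33 of 6949, of which 15 were higher in aLAG3). The gap, from 144 to 146 CPM, was narrow and rested on the TMM factors. Scaled by total counts without them, untreated library 3 was at 137.7 and aLAG3 library 8 at 137.3 CPM, and the groups overlapped.

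For Cd44, means and SDs were 138 ± 4.86 CPM over the 5 untreated and 152 ± 4.73 CPM over the 6 aLAG3 libraries, and the fitted log2 fold change was 0.15 (standard error 0.10, 95% interval -0.063 to 0.35). The quasi-likelihood test gave an unadjusted p of 0.163, with 1013 of the 6949 genes at that p or smaller, and an adjusted p of 0.999. The libraries held only 42 to 270 reads on Cd44, and they scattered less than counting alone allows, with a within-group chi-square of 0.149 per degree of freedom, below the lower decile of all tested genes (0.684). The SDs above are thus smaller than counting error, whereas the standard error comes from a fit that shares its dispersion across genes. The estimate was 0.15 within primer barcode 9 as well, and it lay between 0.12 and 0.18 under every alternative and with each library left out.

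Icam2 (ENSMUSG00000001029.15, chromosome 11, 106377656 to 106388075, minus strand), a ligand of LFA-1 on lymphocytes and endothelium, was at 23.0, 33.0, 32.9, 30.7 and 22.5 CPM in untreated libraries. The aLAG3 libraries lay between 5.04 and 40.1 CPM with a median of 27.5 CPM. The lowest and the highest library of all 11, aLAG3 libraries 11 and 8, were both in the treated group. The low value rests on 2 reads, below the 7.21 CPM that 3 counts were worth in that library. Its log2 fold change was -0.016 (standard error 0.26) with all libraries and 0.12 without aLAG3 library 11. The 4 endothelial markers summed to at most 9.45 CPM in any library.

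The alpha and beta chains were next set against each other within each library, which removes the library scaling. In 5 pairs known to form receptors, the log2 ratio of reads on the alpha over the beta gene was compared between the groups. None of the 5 differed beyond its spread (two-sided exact permutation test, adjusted p from 0.393 to 0.887 over the 5 pairs, where the smallest unadjusted p that these group sizes allow is 0.00216). Because the genes differ in length, only differences in a ratio between libraries are read here.

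For LFA-1, the log2 ratio of Itgal over Itgb2 was -0.28, -0.55, -0.48, -0.19 and -0.20 in untreated libraries and -0.63 to -0.21, median -0.60, in aLAG3 libraries. Of the 6 aLAG3 libraries, 4 lay below every untreated library and the other 2 among them. The difference in mean was -0.15 (-0.34 ± 0.16, SD, n = 5, against -0.49 ± 0.19, SD, n = 6; exact permutation test, p = 0.206), and it stayed negative with each library left out, between -0.20 and -0.11.

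For Itga4 over Itgb7, the ratio was 1.24 ± 0.55 (SD, n = 5) in untreated and 1.599 ± 0.40 (SD, n = 6) in aLAG3 libraries, a difference of 0.36 on the log2 scale (exact permutation test, p = 0.236) that was -0.12 in the libraries of barcode 9. Itga4 over Itgb1 differed by 0.028 (exact permutation test, p = 0.887), and Itgav over Itgb1 by -0.17 (exact permutation test, p = 0.511), a value that lay between -0.298 without aLAG3 library 7 and -0.058 without aLAG3 library 9. Itgae over Itgb7 was higher by 0.87 (exact permutation test, p = 0.165), a value set by the 0 to 7 reads on Itgae and by the 0.5 reads added to every count. It lay between 0.52 without aLAG3 library 11 and 1.12 without aLAG3 library 8, and was 1.38 within primer barcodes 8 and 9.

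**Figure D4:**
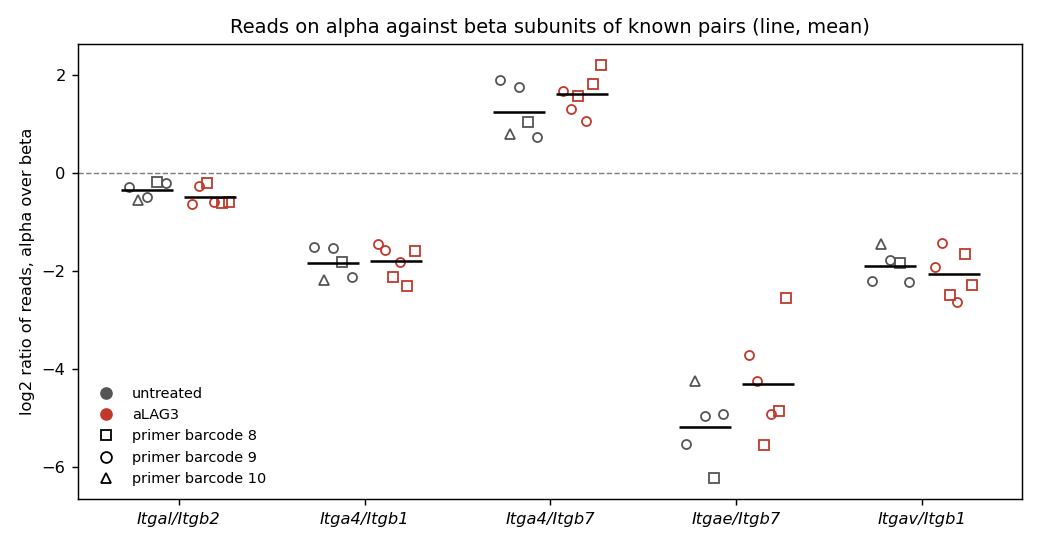
Log2 ratio of reads on the alpha over the beta gene (y axis) for 5 integrin pairs in each library, with the group as colour, the primer barcode as symbol and the group mean as a line. The groups overlap for each pair, and Itgae over Itgb7, with 0 to 7 reads on Itgae, spreads the most.

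Across the 11 libraries, the chains of a pair did not rise and fall together beyond what permuted libraries gave. Pearson's r was 0.20 for Itgal and Itgb2, -0.22 for Itga4 and Itgb1, -0.25 for Itga4 and Itgb7 and 0.38 for Itgav and Itgb1 (permutation test, adjusted p = 0.566 for each of the 4 pairs). With each library left out, r ranged from 0.10 (without aLAG3 library 9) to 0.30 (without untreated library 4) for Itgal and Itgb2 and from -0.47 (without untreated library 5) to -0.097 (without aLAG3 library 10) for Itga4 and Itgb1. It ranged from -0.43 (without aLAG3 library 10) to -0.078 (without aLAG3 library 11) for Itga4 and Itgb7 and from 0.10 (without aLAG3 library 10) to 0.60 (without aLAG3 library 7) for Itgav and Itgb1. Spearman's rho was 0.16, -0.21, -0.25 and 0.18 in the same order (permutation test, adjusted p = 0.631 for each). Without the 2 libraries farthest from the median of the alpha gene, r was -0.073 for Itgal and Itgb2, -0.63 for Itga4 and Itgb1, 0.084 for Itga4 and Itgb7 and -0.32 for Itgav and Itgb1 (exact permutation test, p = 0.859, 0.0675, 0.824 and 0.395). In the libraries of barcode 9 the values were 0.38, 0.13, -0.57 and -0.44, and the other barcodes hold too few libraries. Itgae had too few reads for such a value.

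The table holds 26 integrin subunit genes, 18 alpha and 8 beta, of which 7 passed the filter. These were Itgb1, Itgb2, Itga4, Itgav, Itgal, Itgb7 and Itgb3. The first 6 of them took 93.0% of all integrin reads and Itgb1 alone 40.4%, without correction for length. Itga6, Itgax, Itga1 and Itgb8 had 63 to 89 reads over the 11 libraries, Itgam had 23, and Itga8 and Itga9 had none. Itgam and Itgax, which pair with Itgb2 on myeloid cells, were thus at or below 7.68 and 15.6 CPM in every library, while Itgb2 was at 202 CPM or more.

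**Figure D5:**
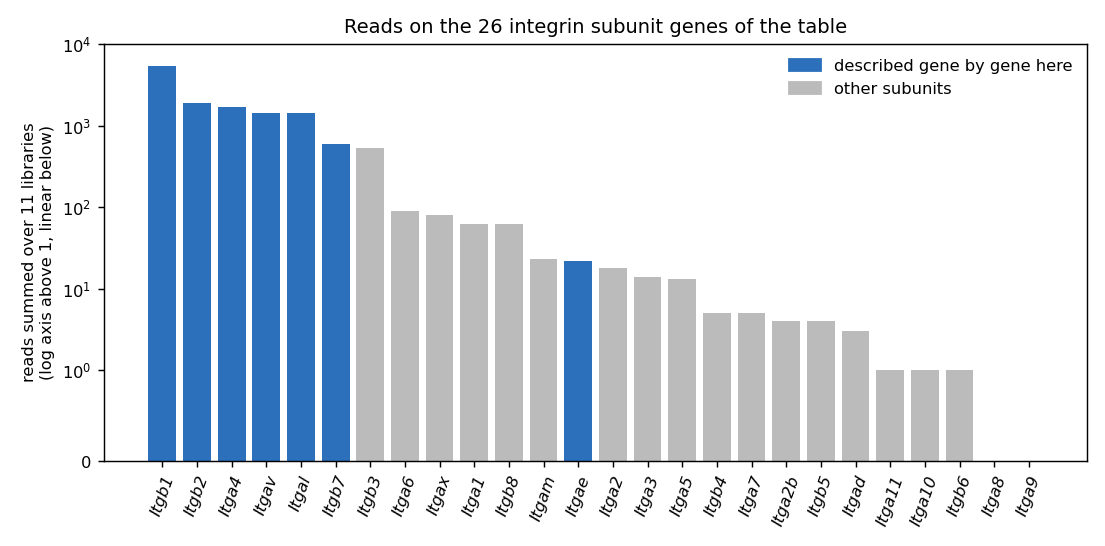
Reads summed over the 11 libraries (y axis, log scale above 1 read) for the 26 integrin subunit genes of the table, in falling order. The subunits described gene by gene are in blue, with Itgb1 at 5366 reads and Itgae at 22, and Itgb3, at 524 reads, leads the others.

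Itgb3, which pairs with Itgav to bind vitronectin, was at 71.4, 62.6, 60.5, 92.2 and 80.7 CPM in untreated libraries and at 37.97 to 79.7 CPM, median 45.0 CPM, in aLAG3 libraries. In 5 of the 6 aLAG3 libraries it lay below every untreated library, and in aLAG3 library 7 it lay among them. A log2 fold change of -0.45 (standard error 0.19, unadjusted p = 0.0256) was fitted, which did not pass the adjustment (adjusted p = 0.999 in the quasi-likelihood test). It was negative under each alternative and with each library left out, between -0.76 and -0.30. Itgb3 is also a platelet gene. The 4 platelet markers summed to at most 5.30 CPM in untreated and 25.5 CPM in aLAG3 libraries (library 10, and at most 13.3 CPM in the others), with no read on Ppbp or Gp1ba.

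Genes that act with these receptors were counted in 6 lists of 92 genes, of which 54 were tested. None passed the adjusted threshold, and 5 of the 54 (9.26%) were at an unadjusted p under 0.05, 1 higher and 4 lower, where all genes gave 1.74% higher and 1.99% lower. The lists, too, were chosen with earlier results of these data known. The 5 are Cd226, Itgb3, Stk4, Parvb and B4galt1. That count was 3 without untreated library 1, aLAG3 library 6 or aLAG3 library 9, and 9 without aLAG3 library 7.

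Of the proteins that switch integrins on from inside the cell, such as talin, kindlin-3 and the RAP1 pathway, 17 of 18 genes were tested, 12 higher and 5 lower by point estimate with a median log2 fold change of 0.079. Stk4 (MST1), the kinase that carries RAP1 signals to LFA-1, was lower by point estimate, at 184 to 211 CPM in untreated and 130 to 210 CPM in aLAG3 libraries (log2 fold change -0.30, standard error 0.11, unadjusted p = 0.00892). Of the aLAG3 libraries only library 10 fell within the untreated range. Fyb (ADAP), the adaptor that brings talin regulators to LFA-1, had the smallest p on the higher side, with means and SDs of 279 ± 25.5 CPM over the 5 untreated and 308 ± 26.03 CPM over the 6 aLAG3 libraries.

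Of the complex that ties bound integrins to actin, 13 of 15 genes were tested, 5 higher and 8 lower by point estimate with a median of -0.074. Parvb, the parvin of the ILK complex, was at 35.8 ± 11.6 CPM (SD) over the 5 untreated and 20.5 ± 11.3 CPM over the 6 aLAG3 libraries (log2 fold change -0.72, standard error 0.26, unadjusted p = 0.0109), on 1 to 61 reads per library. Tes, a zyxin-binding protein of focal adhesions, was at 282 ± 22.8 CPM in untreated and 316 ± 25.04 CPM in aLAG3 libraries.

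Among other adhesion receptors and their ligands, 12 of 18 genes were tested, 7 higher and 5 lower by point estimate with a median of 0.023. Cd226 (DNAM-1), a costimulatory receptor that works with LFA-1, was at 142, 142, 145, 177 and 124 CPM in untreated libraries and at 163 to 206 CPM, median 175 CPM, in aLAG3 libraries. The groups overlapped through untreated library 4 alone. It had a fitted log2 fold change of 0.29 (error 0.11, unadjusted p = 0.0125, adjusted p = 0.999 in the quasi-likelihood test). Icam1, the main ligand of LFA-1, was at 105 to 246 CPM in untreated and 135 to 179 CPM in aLAG3 libraries, a log2 fold change of -0.18 (standard error 0.15). This value rested on single libraries, since it was -0.050 without untreated library 4, -0.098 without untreated library 5 and -0.28 without untreated library 2. It was -0.31 with the primer barcode as a covariate and -0.39 without the 3 libraries of title code ExT18083.

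Of the selectins and the enzymes that decorate selectin ligands, 6 of 11 genes were tested, 1 higher and 5 lower by point estimate with a median of -0.049. B4galt1, a galactosyltransferase that extends the glycans on which selectin ligands are built, was at 117 ± 14.3 CPM (SD) over the 5 untreated and 95.2 ± 17.4 CPM over the 6 aLAG3 libraries (log2 fold change -0.29, standard error 0.14, unadjusted p = 0.0456). Tpst2, a sulfotransferase that acts on PSGL-1 and the 1 gene counted as higher, differed by 0.0081 on the log2 scale (standard error 0.16). Its mean was nonetheless lower in aLAG3 (65.8 CPM) than in untreated libraries (69.2 CPM).

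Of the CD44 partners and hyaluronan genes, 5 of 11 were tested, 3 higher and 2 lower by point estimate with a median of 0.086. Nf2 (merlin), which binds the tail of CD44, was at 28.0 ± 4.38 CPM (SD) over the 5 untreated and 37.9 ± 14.9 CPM over the 6 aLAG3 libraries. Ezr (ezrin), which links CD44 to actin, was at 251 ± 31.7 CPM in the former and 234 ± 33.9 CPM in the latter.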

How the data were processed

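Bulk RNA-seq was measured in 11 libraries, a library per mouse. The authors trimmed reads with Cutadapt, mapped them with Bowtie2 to reference RNA of GRCm38 and deposited raw read counts per gene symbol; versions differ between the methods and the processing notes (cutadapt 4.1 and Bowtie2 2.4.5 in the latter), and the treatment of multimapping reads and of strand is not given in the sources used here. Groups came from the treatment labels and library numbers 1 to 11 from the descriptions. No number is shared between groups, so nothing was paired. The genes and gene lists were chosen with earlier results of these data known.

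Genes were filtered on their counts with filterByExpr (minimum count 10, total count 15, 17.7 CPM in at least 5 libraries), scaled by TMM (factors 0.985 to 1.01) and tested with edgeR 4.0.16 (glmQLFit, glmQLFTest, common biological coefficient of variation 0.115) in R 4.3.3, with Benjamini-Hochberg adjustment over the 6949 genes tested and a threshold of 0.05. CPM of single genes are relative to the counts on tested genes, TMM-scaled; sums over markers and the value of 3 counts use total counts. Standard errors are the absolute log2 fold change over the square root of F. Ratios used log2((count + 0.5)/(count + 0.5)), and exact permutation p-values are the share of all splits with an absolute difference at least as large. Correlations used log2 CPM with a prior count of 2 and 100000 permutations (all permutations for under 10 libraries). The scripts were tested on simulated data: with 200 of 6789 genes changed 1.5-fold, 38% were recovered with 2 false calls, with 200 of 6815 changed 2-fold, 83% with 10 false calls, and with none changed among 6832 genes 0 were called.

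All 10 genes are named; of each list the higher and the lower gene with the smallest p, plus Cd8a and Lag3 and the myeloid genes beside a result, are named too, with the exception of 1 sort marker that is not reported here. Other counts of 5 or fewer were named after their values were seen. Coordinates and transcript lengths are from GENCODE M21 (GRCm38), another release than the authors used. No library is a copy of another (chi-square per degree of freedom 1.43 to 3.44 over 55 pairs). Counts are PCR-amplified reads without molecular identifiers, so intervals and floors cover counting error only. Alternatives covered the scaling, the filter, the test (DESeq2 1.42.0, limma 3.58.1), the primer barcode, the pseudocount and each library left out; leaving out the 3 libraries of title code ExT18083, the count of list genes at an unadjusted p under 0.05 and the relation to depth were added after seeing the data.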

Additional observations from a re-analysis of the deposited data

How the results depend on the processing

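No adhesion or integrin gene passed the adjusted threshold in the 10 alternative fits or the 11 that leave out a library, and 0 of the 9 tested were at an unadjusted p under 0.05 in any of them. Over all genes, 0 were called in every fit but the unfiltered one (3 genes) and the one without aLAG3 library 7 (2 genes). At an unadjusted p under 0.05 there were 1095 without a filter, 163 with DESeq2 and 425 within primer barcode 9, against 259. The unfiltered fit kept every gene with a read and the barcode 9 fit was filtered anew. Their numbers of tested genes thus differ, and these counts are not shares of the same genes. Of the 9 genes, 1 had groups that did not overlap with TMM and 0 with total counts, while over all genes tested the share was 0.475% (33 of 6949) with both. The median log2 fold change of these genes stayed between -0.062 and 0.034.

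The sign of several small differences turned, none of them past a threshold in any fit, and the cause was not tested. With the primer barcode as a covariate, the log2 fold change was -0.0015 for Itga4, 0.024 for Itgav and 0.035 for Icam2. Within primer barcode 9 it was -0.042 for Itgb1, 0.22 for Itgb7, 0.080 for Itgav, 0.12 for Icam2 and 0.0022 for Ezr. Without the 3 libraries of title code ExT18083 it was 0.075 for Itgav and 0.16 for Icam2. It was -0.0052 for Itgb1 with limma-voom and -0.0093 for Tpst2 with DESeq2. With each library left out it ranged from -0.062 to 0.12 for Itga4, -0.025 to 0.084 for Itgb1, -0.21 to 0.045 for Itgav, -0.12 to 0.12 for Icam2 and -0.091 to 0.084 for Tpst2. The sign held for Itgal, Itgb2, Selplg and Cd44 in all of these.

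Of the ratios, Itga4 over Itgb1 differed by -0.040 within primer barcodes 8 and 9 and by -0.062 to 0.13 with each library left out. Left out in the same way, Itga4 over Itgb7 differed by 0.23 to 0.52, Itgav over Itgb1 by -0.298 to -0.058 and Itgae over Itgb7 by 0.52 to 1.12. Within barcode 9 alone Itga4 over Itgb7 differed by -0.12 and Itgav over Itgb1 by 0.077. Itgae over Itgb7 could not be computed without a pseudocount. Of the correlations, those within barcode 9 were 0.13 for Itga4 and Itgb1 and -0.44 for Itgav and Itgb1. The correlation with depth was 0.025 for Cd44 with total counts, and within barcode 9 it was -0.47 for Itgb7, 0.69 for Itgav and 0.075 for Cd44. With each library left out it ranged from -0.11 to 0.29 for Itgb7, -0.15 to 0.23 for Cd44, -0.22 to 0.25 for Icam2 and 0.019 to 0.72 for Itgb2, the last without aLAG3 library 10. For Itgb1 the depth relation stayed negative throughout but missed the threshold without aLAG3 library 7 and within barcode 9. No paired analysis was possible because the groups share no replicate number. At 14 to 141 reads on Itgb7, 2 to 51 on Icam2 and 0 to 7 on Itgae, depth limits these genes most.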
